A study of Mus musculus with 6 samples.

Results

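Immediate early genes are transcribed within minutes of a growth factor, stress or mechanical stimulus, without the need for new protein synthesis. Many of them encode basic leucine zipper (bZIP) proteins of the FOS and JUN families, which pair to form the transcription factor AP-1, and in epithelia AP-1 is known for its part in proliferation, keratinocyte differentiation and wound repair. The 10 genes described here were *Fos*, *Fosb*, *Fosl1* and *Fosl2* of the FOS family, *Jun*, *Junb* and *Jund* of the JUN family, and *Egr1*, *Atf3* and *Ier2*, 3 further immediate early factors. They were chosen by symbol, and all 10 were among the 18152 genes of the deposited table. *Fosl1* had too few counts to be tested, so 9 of the 10 were among the 14131 genes tested.

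RNA-seq libraries came from the inner enamel epithelium (IEE), the layer that gives rise to ameloblasts, of the mandibular first molar of mice at E18.5. There were 3 libraries from *Kdf1 fl/fl* mice, which the labels call control or WT, and 3 of the genotype *K14-Cre;Kdf1 fl/fl*, which they call cKO. Both groups carried the floxed *Kdf1* alleles, and only the cKO group carried the *K14-Cre* transgene, in which the keratin 14 promoter drives Cre recombinase in epithelium, so that the control group held no Cre. The tissue was cut from frozen head sections by laser capture microdissection, so cells next to the IEE could be included. Nothing states that each library came from a separate embryo, and p values therefore measure the spread between these libraries only.

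Library totals lay between 14713918 and 16675133 counts, and levels are given as CPM, the counts of a gene scaled to an equal library total, on TMM-scaled library sizes. At these depths a count of 0 allowed up to 3 counts, or 0.182 to 0.198 CPM, for counting error only. *Kdf1* had 731 to 836 counts in each control library and 0, 1 and 0 counts in cKO replicates 1, 2 and 3. The dental epithelium markers *Epcam*, *Cdh1* and *Krt14* were present in every library at 248 CPM or more. *Cdh1* (log2 fold change -1.50, SE 0.21, edgeR adjusted p = 0.0498) and *Krt14* (-1.50, SE 0.37, edgeR adjusted p = 0.0842) were lower in all cKO libraries than in all controls. The groups overlapped for *Epcam* (-0.054, SE 0.21, edgeR adjusted p = 0.897). Of 12 dental epithelium markers, 7 were lower in all cKO libraries (58.3%, against 30.7% of all genes tested with groups that did not overlap). Dental papilla and odontoblast markers were present as well, with summed levels of 5144 to 23734 CPM in the control group and 11433 to 13375 CPM in the cKO group. These sums are mostly collagen I and hide a split, as 6 of the 14 genes were higher and 2 lower in all cKO libraries than in all controls. Genes whose groups did not overlap in this way made up 57.1% of the list and 30.7% of all genes tested. *Twist1*, a mesenchymal transcription factor, was at 9.29, 16.5 and 8.97 CPM in control and at 75.9, 45.8 and 41.9 CPM in cKO (log2 fold change 2.23, SE 0.33, edgeR adjusted p = 0.0498), whereas *Dspp*, the main odontoblast matrix gene, had a log2 fold change of -3.45 (SE 1.23, edgeR adjusted p = 0.152).

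Promoter sequences are shown for *Fos*, *Fosb* and *Jun*, whose levels varied most between libraries among the AP-1 genes or differed most between the groups. RefSeq sequences of the GRCm38.p6 build were at hand for 7 of the 10 genes, and not for *Egr1*, *Ier2* and *Fosl1*. Each sequence below holds the 250 bases before the RefSeq start, 5′ to 3′ on the strand of the gene. The *Fos* window lies at chr12:85473640-85473889, plus strand, that of *Fosb* at chr7:19310046-19310295, minus strand, and that of *Jun* at chr4:95052223-95052472, minus strand. Capitals mark matches to TGACG, the core of a cAMP response element, or to TGACATCA, a variant of the AP-1 element, on either strand.
*Fos*: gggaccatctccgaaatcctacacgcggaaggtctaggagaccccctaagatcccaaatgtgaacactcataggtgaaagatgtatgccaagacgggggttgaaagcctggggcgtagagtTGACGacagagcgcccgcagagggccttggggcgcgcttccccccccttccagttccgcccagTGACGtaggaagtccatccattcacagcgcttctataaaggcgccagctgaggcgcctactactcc
*Fosb*: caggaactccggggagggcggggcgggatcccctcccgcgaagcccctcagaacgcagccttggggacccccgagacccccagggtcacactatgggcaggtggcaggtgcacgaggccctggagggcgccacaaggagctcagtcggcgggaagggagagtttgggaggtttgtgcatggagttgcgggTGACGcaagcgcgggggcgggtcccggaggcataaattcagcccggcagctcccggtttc
*Jun*: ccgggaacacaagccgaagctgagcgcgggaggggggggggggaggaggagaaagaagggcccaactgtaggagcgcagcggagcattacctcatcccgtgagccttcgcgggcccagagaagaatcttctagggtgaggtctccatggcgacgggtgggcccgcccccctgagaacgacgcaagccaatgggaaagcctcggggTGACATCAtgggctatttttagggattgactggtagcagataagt

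*Fos* held TGACG with its first base at positions -129 and -66, counted back from the start. *Fosb* held it at position -60, and *Junb*, which is not printed, at position -106. *Atf3* held the reverse complement of TGACG at position -7. *Jun* held TGACATCA at position -45. The AP-1 element TGACTCA, the full cAMP response element TGACGTCA, which contains TGACG, and the CArG box of serum response factor had no match in any of the 7 windows, and *Fosl2* and *Jund* held none of these motifs. TATAAA, which is not capitalised, matched in *Fos* alone, at position -33. On both strands of 32851 RefSeq windows of the same length, TGACG was present in 17.8%, TGACATCA in 2.93%, TGACTCA in 4.46%, TGACGTCA in 1.55%, TATAAA in 12.4% and the CArG box in 1.47%. These matches describe the letters of the windows and were not tied to binding. Bases farther than 250 before the start were not searched, so a motif without a match here can still lie outside the window.

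None of the 9 tested members passed the study's criterion (log2 fold change of 1 or more in either direction, adjusted p of 0.05 or less) in the comparison of cKO with control. Of all genes tested by edgeR's quasi-likelihood test, 0.432% passed it. With the replicate number as a block, 0 of the 9 members and 6.09% of all genes passed, and with DESeq2 0 of the 9 and 6.94%. At an unadjusted p of at most 0.05 the count was 1 of 9, *Jun*, against 24.5% of all genes. In none of the 9 members were the 3 cKO libraries all above or all below the 3 control libraries, whereas the groups did not overlap in 30.7% of all genes. The median log2 fold change was 0.41 over the 9 members and -0.0043 over all genes tested, and 8 of the 9 had a positive value. Without cKO replicate 1 the median of the members was -0.091 and 3 of the 9 were positive, so that 1 library turned the direction.

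**Figure D1:**
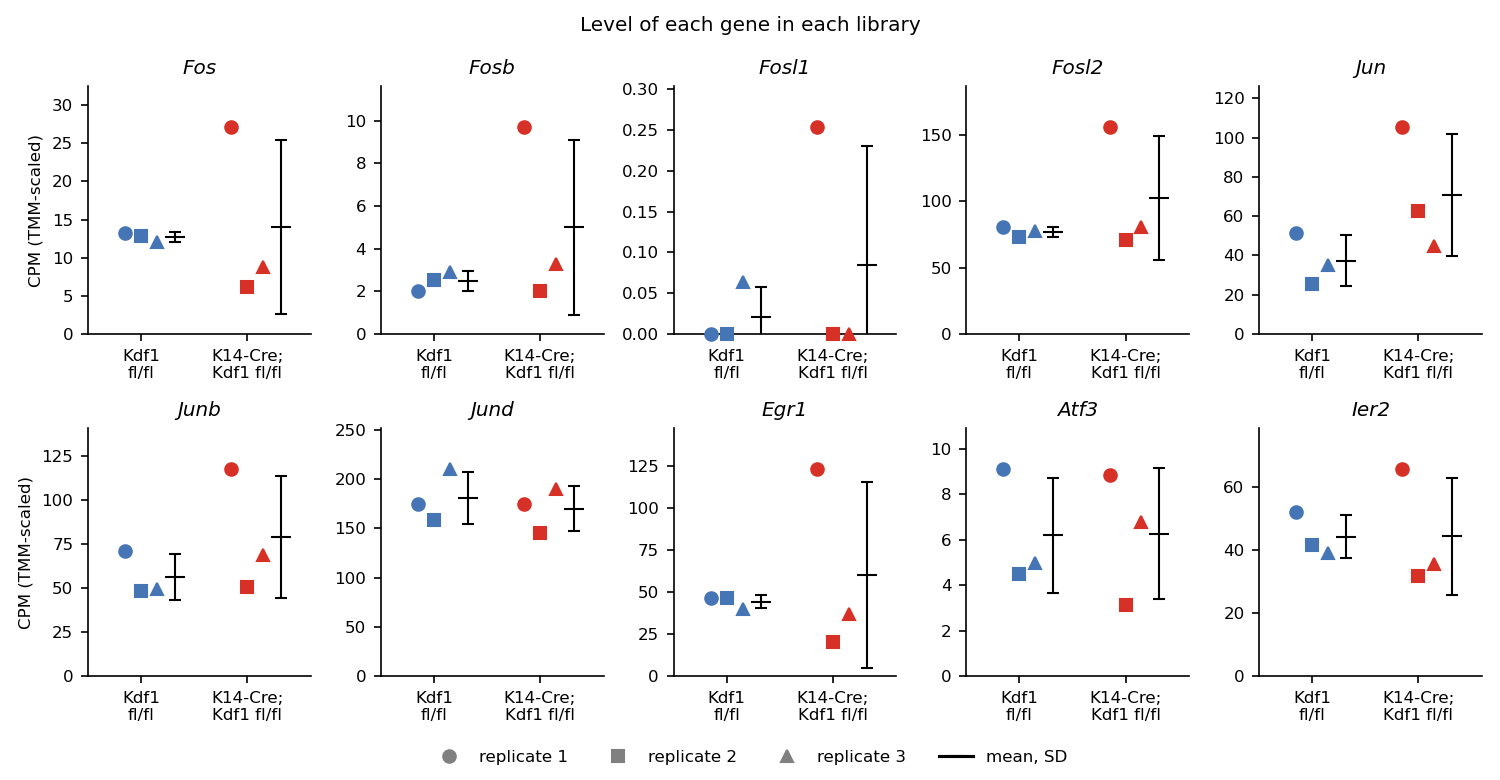
Level of each of the 10 genes in each library, in CPM on TMM-scaled library sizes, with blue for *Kdf1 fl/fl* and red for *K14-Cre;Kdf1 fl/fl*. Point shapes give the replicate number and bars the mean and SD of 3 libraries. Replicate 1 of the cKO group was the highest of the 6 libraries for 8 of the 10 genes, and the groups overlapped for every gene.

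Among the FOS family, *Fos* encodes the prototypical partner of JUN proteins. Its levels were 13.2, 12.9 and 12 CPM in control replicates 1, 2 and 3, and 27.1, 6.17 and 8.83 CPM in cKO replicates 1, 2 and 3. The control libraries lay close together, while the cKO libraries fell on both sides of them, replicate 1 above all 3 and replicates 2 and 3 below all 3. The means were 12.7 ± 0.617 CPM and 14.03 ± 11.4 CPM (SD, n = 3 per group), and the log2 fold change was 0.14 (SE 0.51, edgeR adjusted p = 0.888). Without cKO replicate 1 it was -0.74 (SE 0.23, edgeR adjusted p = 0.176) and with the replicate block -0.14 (SE 0.41, edgeR adjusted p = 0.853), so its sign differed between fits.

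*Fosb*, whose product is an activity-induced FOS protein, was at 2.01, 2.54 and 2.91 CPM in the control libraries and at 9.68, 2.01 and 3.30 CPM in the cKO libraries. Replicate 1 of the cKO group stood apart, and the other libraries lay within a narrow range. Although its log2 fold change of 1.01 (SE 0.58) was the largest of the 9 members, the edgeR adjusted p was 0.325. Leaving out cKO replicate 1 gave 0.11 (SE 0.37, edgeR adjusted p = 0.888).

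*Fosl2* encodes Fra-2, a FOS protein without a classical transactivation domain. It was at 80.6, 72.9 and 77.3 CPM in control and at 155, 70.4 and 80.3 CPM in cKO. Apart from cKO replicate 1, the libraries lay between 70.4 and 80.6 CPM, and the groups overlapped. The log2 fold change was 0.41 (SE 0.29, edgeR adjusted p = 0.421), and -0.011 (SE 0.12) without that library.

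*Fosl1*, which encodes Fra-1, was at or near the detection limit. The counts were 0, 0 and 1 in control replicates 1, 2 and 3, and 4, 0 and 0 in cKO replicates 1, 2 and 3. No fold change is given for it.

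Within the JUN family, *Jun* had the smallest p of the 9 tested members. Its product c-Jun can pair with itself as well as with FOS proteins and is a substrate of JNK. The levels were 51.2, 25.6 and 35.2 CPM in control replicates 1, 2 and 3 and 105, 62.4 and 44.6 CPM in cKO replicates 1, 2 and 3. The cKO library was higher than the control library of the same number in each of the 3 pairs, although cKO replicate 3 lay below control replicate 1. The log2 ratios of CPM in the pairs were 1.04, 1.29 and 0.34. Mean levels were 37.3 ± 13.0 CPM in control and 70.7 ± 31.1 CPM in cKO (SD, n = 3 per group), a 1.89-fold difference in the fit, with a log2 fold change of 0.92 (SE 0.36), an unadjusted p of 0.0382 and an edgeR adjusted p of 0.178.

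The fit with the replicate number as a block gave *Jun* a log2 fold change of 0.89 (SE 0.19) and an edgeR adjusted p of 0.0397. Of all genes, 5.43% had an adjusted p of at most 0.05 with higher levels in cKO in that fit, and *Jun* was the only one of the 9 members that did. The criterion was still not met, since the log2 fold change was under 1. DESeq2 gave an adjusted p of 0.0708 without the block and 0.0013 with it. Without cKO replicate 1 the log2 fold change in the fit with no block was 0.54 (SE 0.30, edgeR adjusted p = 0.355).

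*Junb*, a JUN protein often described as an antagonist of c-Jun, was at 71.1, 48.5 and 49.2 CPM in control and at 118, 50.4 and 68.7 CPM in cKO. Here too the cKO library exceeded its same-numbered control in each of the 3 pairs, by log2 ratios of 0.72, 0.057 and 0.48. The log2 fold change was 0.49 (SE 0.32, edgeR adjusted p = 0.383), and the edgeR adjusted p with the block was 0.128.

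*Jund*, which is expressed constitutively in many tissues and is induced less than the other members, varied little. Its levels were 175, 158 and 210 CPM in control replicates 1, 2 and 3 and 175, 145 and 190 CPM in cKO replicates 1, 2 and 3. The 2 groups covered nearly the same range. The log2 fold change was -0.089 (SE 0.16, edgeR adjusted p = 0.757).

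Of the other factors, *Egr1*, a zinc finger gene induced through ERK and serum response factor, had the widest spread of the 9 tested members. It was at 46.7, 46.4 and 39.6 CPM in control and at 123, 20.2 and 37.1 CPM in cKO. As for *Fos*, cKO replicate 1 was above and the other 2 cKO libraries were below all 3 controls. The log2 fold change was 0.44 (SE 0.59, edgeR adjusted p = 0.679) with all libraries, 0.047 (SE 0.48, edgeR adjusted p = 0.961) with the replicate block and -0.61 (SE 0.27, edgeR adjusted p = 0.281) without cKO replicate 1.

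*Atf3*, a stress-induced bZIP repressor, was at 9.10, 4.48 and 4.99 CPM in control and at 8.86, 3.15 and 6.79 CPM in cKO. Replicate 1 was the highest library in both groups. The log2 fold change was 0.017 (SE 0.44, edgeR adjusted p = 0.987), and its sign differed between fits.

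*Ier2*, which encodes a short-lived nuclear protein, was at 52.0, 41.7 and 39.0 CPM in control and at 65.6, 31.8 and 35.5 CPM in cKO. Replicate 1 was again the highest in each group, and the other cKO libraries were below all 3 controls. Its log2 fold change was 0.0026 (SE 0.28, edgeR adjusted p = 0.997), and -0.37 (SE 0.16, edgeR adjusted p = 0.270) without cKO replicate 1.

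**Figure D2:**
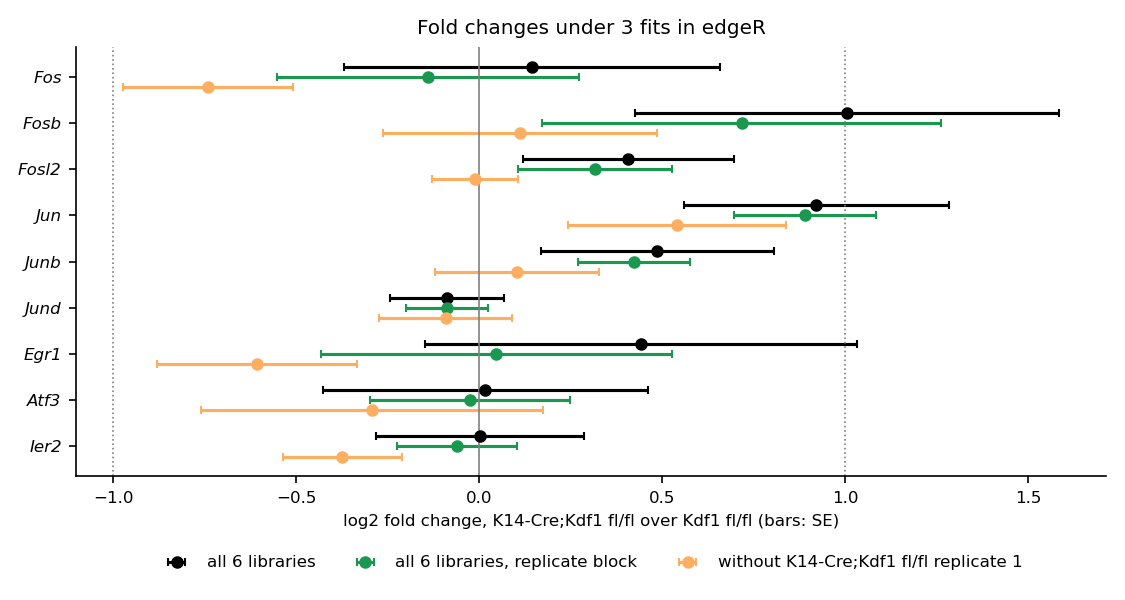
Log2 fold change of cKO over control for the 9 tested genes, on the x axis, under 3 edgeR fits, with bars for the SE and dotted lines at an absolute value of 1. Black points use all 6 libraries, green points add the replicate number as a block, and orange points leave out cKO replicate 1. The orange points lie to the left of the black points for every gene, by less than the SE for *Jund* and *Atf3*, and are negative for *Fos*, *Fosl2*, *Jund*, *Egr1*, *Atf3* and *Ier2*.

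The levels of most members were spread widely within the cKO group. Replicate 1 of cKO was the highest of the 6 libraries for 8 of the 10 genes, the exceptions being *Jund* and *Atf3*, and for 20.5% of all genes tested. Replicate 2 was the lowest for 6 of the 9 tested genes and for 20.9% of all genes. Within cKO the highest library exceeded the lowest 6.09-fold for *Egr1*, 4.81-fold for *Fosb* and 4.39-fold for *Fos*, 2.06- to 2.82-fold for *Fosl2*, *Jun*, *Junb*, *Atf3* and *Ier2*, and 1.31-fold for *Jund*. The median of this ratio over all genes was 1.43. Within control the ratios were 1.10 for *Fos*, 1.11 for *Fosl2* and 1.18 for *Egr1*, below the median of 1.25 over all genes. The other tested members were above that median, at 1.33 for *Jund* and *Ier2*, 1.45 for *Fosb*, 1.47 for *Junb*, 2.00 for *Jun* and 2.03 for *Atf3*.

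Summed marker levels of several other cell types were highest in cKO replicate 1, and those of neutrophils were also raised in the other cKO libraries. Summed over 9 endothelium markers, the levels were 323 to 401 CPM in control and 1070, 636 and 365 CPM in cKO replicates 1, 2 and 3. The 6 pericyte and smooth muscle markers summed to 329 to 383 CPM in control and to 1253, 472 and 399 CPM in cKO. For 10 immune markers the sums were 42.2 to 91.4 CPM and 256, 121 and 78.5 CPM, and for 8 neutrophil markers 4.12 to 5.46 CPM and 84.2, 37.7 and 34.9 CPM. All 7 tested neutrophil markers were higher in every cKO library than in every control, where the groups did not overlap in 30.7% of all genes. In edgeR 5 of the 7 passed the criterion, where 0.432% of all genes did. Their median log2 fold change was 3.46, and without cKO replicate 1 it was 3.08, with 0 passing, where 1 of all genes did.

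The sums of endothelium, pericyte, immune and neutrophil markers all had their highest value in cKO replicate 1, and all were above every control in cKO replicate 2 as well. In the opposite direction, 12 dental epithelium markers summed to 12519 to 28178 CPM in control and 5612, 5801 and 8851 CPM in cKO. Neural and Schwann markers, 7 in all, had sums of 239 to 428 CPM in control and 132 to 190 CPM in cKO, and 9 keratinised epithelium markers 57.5 to 176 CPM and 37.5 to 39.8 CPM. In each of these 2 lists, 3 of the 6 tested genes had positive and 3 had negative log2 fold changes. The keratinised sum followed *Krt6a*, at 25.4 to 108 CPM in control and 3.21 to 6.92 CPM in cKO, and *Krt4* and *Krt13*, which were at 25.9 and 37.0 CPM in control replicate 3 and at 0.363 CPM or less in every other library. The sums of 7 erythroid markers were 831 to 1302 CPM in control and 799 to 1281 CPM in cKO, and 7 skeletal muscle markers summed to at most 5.06 CPM in any library. *Camp*, *Krt4*, *Krt6b* and *Myog* had 0 counts in at least 1 library, and none of the markers in the table was at 0 in all 6. The part of these cells in the members' levels was not tested, and in bulk tissue fewer cells of a type and less RNA per cell cannot be told apart.

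**Figure D3:**
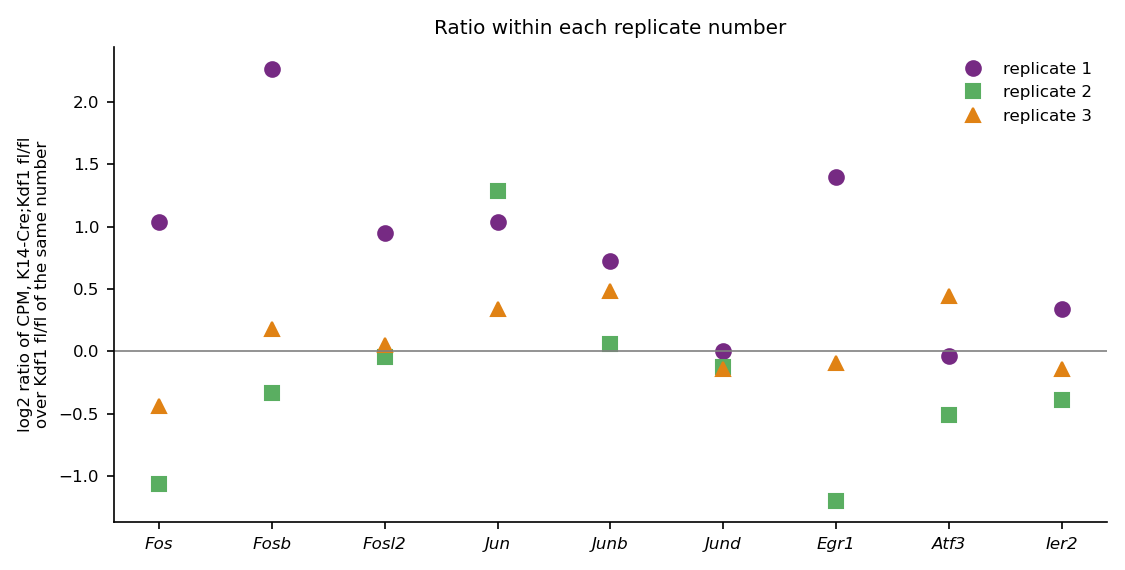
Log2 ratio of CPM between the cKO and control libraries of the same replicate number, on the y axis, for the 9 tested genes. The ratios of replicate 1 were positive for 8 genes and -0.039 for *Atf3*, while those of replicates 2 and 3 lay on both sides of 0, and all 3 ratios were positive for *Jun* and *Junb* alone.

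On the TPM scale, which is corrected for transcript length and allows levels of different genes to be compared, *Jund* was the most abundant member at 118 ± 9.48 TPM in control (SD, n = 3). *Junb* at 61.4 ± 14.6 TPM and *Ier2* at 60.6 ± 10.8 TPM came next and overlapped. *Egr1* at 27.1 ± 4.01 TPM, *Fosl2* at 23.5 ± 1.39 TPM and *Jun* at 21.8 ± 7.48 TPM formed a group whose neighbours overlapped in the control libraries. Below them were *Fos* at 11.8 ± 1.25 TPM, *Atf3* at 6.21 ± 2.57 TPM, *Fosb* at 1.21 ± 0.185 TPM and *Fosl1* at 0.027 ± 0.046 TPM, each without overlap with the next. In cKO the order by mean TPM was the same except that *Jun*, at 44.1 ± 22.4 TPM, ranked above *Egr1* at 39.7 ± 38.8 TPM and *Fosl2* at 33.2 ± 17.4 TPM, by less than the spread of any of the 3.

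*Fosl2* made up most of the FOS family in every library, with 64.3 ± 1.38% of the summed TPM of the 4 genes in control and 69.6 ± 7.68% in cKO (SD, n = 3 per group). *Fos* contributed 32.3 ± 1.53% and 25.5 ± 6.19%, and *Fosb* 3.34 ± 0.652% and 4.76 ± 1.31%. The family summed to 38.2, 37.8 and 33.9 TPM in control and to 87.0, 29.1 and 33.8 TPM in cKO. Compared with the control of the same number, the cKO sum was about equal in replicate 3, lower in replicate 2 and higher in replicate 1.

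In the JUN family *Jund* contributed 59.0 ± 6.80% of the summed TPM in control and 48.0 ± 9.15% in cKO, *Junb* 30.3 ± 4.81% and 34.9 ± 6.46%, and *Jun* 10.7 ± 2.53% and 17.2 ± 4.82%. The share of *Jun* was 13.5%, 8.75% and 9.75% in control replicates 1, 2 and 3 and 20.3%, 19.6% and 11.6% in cKO replicates 1, 2 and 3. It was higher in cKO in each same-numbered pair, with the groups overlapping. The JUN genes together outweighed the FOS genes in each library, the ratio of FOS to JUN sums being 0.171 to 0.207 in control and 0.255, 0.151 and 0.153 in cKO.

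**Figure D4:**
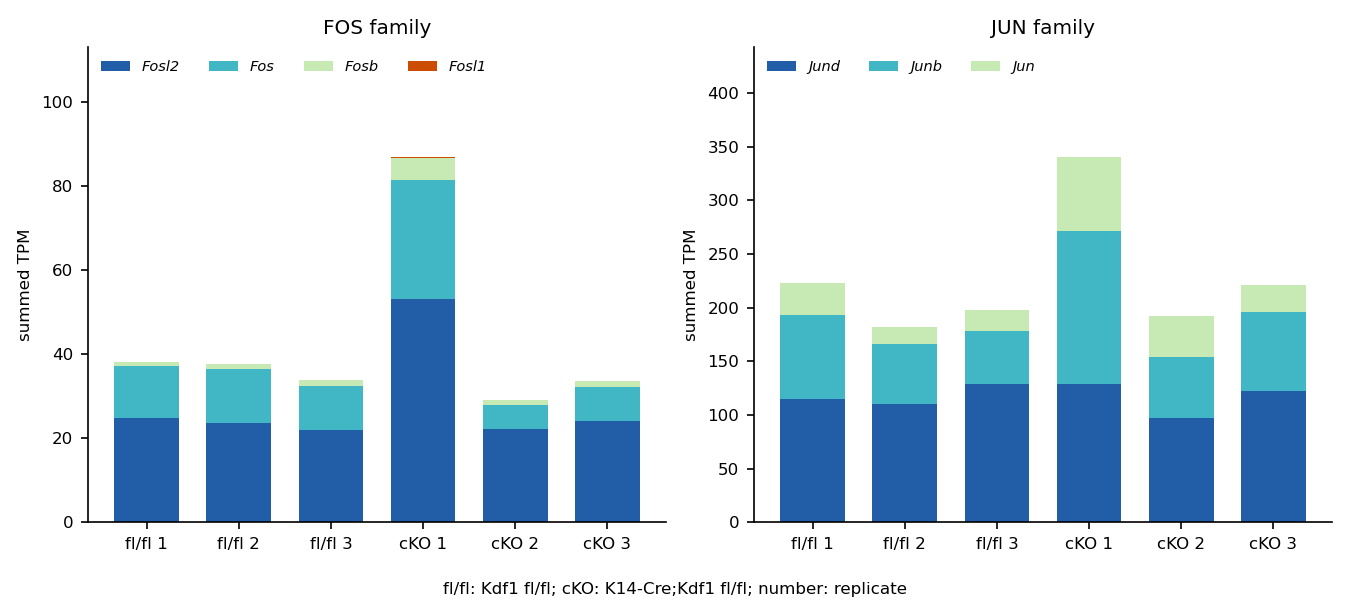
Summed TPM, on the y axis, of the 4 FOS family genes and the 3 JUN family genes in each library, stacked by gene. *Fosl2* and *Jund* are the largest parts of their families except in cKO replicate 1, where *Junb*, at 143 TPM, exceeds *Jund*, at 129 TPM, and both sums are highest in that library.

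Likeness to the pattern of *Fos* was measured as the root mean square difference of log2 CPM, centred on the mean over the 6 libraries, across 11590 genes outside the members with at least 5 CPM on average. *Angptl4*, an inhibitor of lipoprotein lipase, was the nearest at 0.17. It was at 23.9, 20.2 and 25.3 CPM in control and at 42.3, 9.19 and 15.6 CPM in cKO. *Kcnj15*, a potassium channel gene, followed at 0.21, then *Pgap6* at 0.26, *Tgfb1i1* at 0.27 and *Sulf1* at 0.29. Among the members *Egr1* was the closest to *Fos*, at 0.18, and *Jun* the farthest, at 0.72. These values describe 6 libraries, and the high value of cKO replicate 1 weighs on all of them.

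A list of 46 tested further immediate early genes, out of 50 listed, had a median log2 fold change of 0.40, and 33 of the 46 had positive values. Without cKO replicate 1, the highest library for 26 of the 46 (56.5%, against 20.5% of all genes), the median was 0.22 and 27 were positive. That library also had the highest sums of endothelium, pericyte and immune markers, whose part was not tested. In edgeR 0 of them passed the criterion, 20 of 46 (43.5%, against 24.5% of all genes) had an unadjusted p of 0.05 or less, and the groups did not overlap for 22 of 46 (47.8%, against 30.7%). With the replicate block 5 rose and 1 fell, where 6.09% of all genes passed, and with DESeq2 8 rose and 1 fell, where 6.94% did. *Klf9*, a Krüppel-like factor induced by steroid hormones, was at 12.4, 11.8 and 11.2 CPM in control and at 96.6, 37.3 and 33.2 CPM in cKO, with all cKO libraries above all controls. Its log2 fold change was 2.23 (SE 0.42, edgeR adjusted p = 0.0637, and 0.0178 with the block).

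*Ccn1*, which encodes a matricellular protein, had a log2 fold change of 1.62 (SE 0.55, edgeR adjusted p = 0.138, and 0.0105 with the block), and *Gem*, a small GTPase gene, one of 1.62 (SE 0.59, edgeR adjusted p = 0.157, and 0.0290 with the block). *Nr4a3*, an orphan nuclear receptor, and *Socs3*, a feedback inhibitor of cytokine signalling, passed with DESeq2 alone, with edgeR log2 fold changes of 2.37 (SE 0.70) and 1.66 (SE 0.55). The other genes that passed with the block, named after their values were seen, were *Ccn2* and *Per1*, which rose, and *Gadd45b*, which fell. *Zfp36l1*, *Klf4* and *Btg1*, the genes with the highest mean CPM in the list, did not pass in any of these 3 fits, with log2 fold changes of 0.47, -0.26 and 0.24. Without cKO replicate 1, 0 of the 46 passed in edgeR, where 1 of 14292 genes did. In DESeq2 without that library 4 of the 46 passed, where 573 of 14292 genes did.

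Of 29 tested bZIP partners, which can pair with or compete with FOS and JUN proteins, 0 passed in edgeR, and the median log2 fold change was 0.11, or -0.0069 with 14 of 29 positive without cKO replicate 1. With the block *Batf3*, *Cebpd* and *Bach2* rose and *Maf* fell, 4 of 29 genes, where 6.09% of all genes passed. With DESeq2 *Jdp2* rose as well, which made 5 of 29, where 6.94% of all genes passed. The groups did not overlap for 11 of the 29 (37.9%, against 30.7% of all genes). *Maf*, a large MAF factor, was at 313, 209 and 352 CPM in control and at 191, 63.5 and 128 CPM in cKO. Its cKO libraries were all below its controls, with a log2 fold change of -1.19 (SE 0.39, edgeR adjusted p = 0.132, and 0.0186 with the block). *Cebpd*, a C/EBP factor of inflammatory responses, was at 5.50 ± 0.582 CPM in control and 21.4 ± 11.98 CPM in cKO. *Batf3*, best known from dendritic cells, reached 2.44 ± 1.09 CPM in cKO against 0.497 ± 0.0517 CPM in control (SD, n = 3 per group). *Jdp2*, a repressor that pairs with JUN proteins, was at 6.12 ± 2.07 CPM and 19.7 ± 12.6 CPM, and *Bach2*, a repressor of lymphocyte genes, at 6.46 ± 2.01 CPM and 16.9 ± 6.95 CPM. *Nfe2l1* and *Atf4*, which with *Maf* had the highest mean CPM of the list, had log2 fold changes of -0.17 and 0.11 and passed in none of these 3 fits. The sums of endothelium, immune and pericyte markers were highest in cKO replicate 1, which was also the highest library for 15 of the 29 genes, and their part in these values was not tested.

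The kinases and serum response factor regulators that act upstream of these genes showed a median log2 fold change of -0.077 over 38 tested genes, of which 25 had negative values. In edgeR 0 passed the criterion, and 10 of 38 (26.3%) had an unadjusted p of at most 0.05, a share near the 24.5% of all genes. *Mapk10*, which encodes the JNK3 kinase, was the only 1 of the 38 to pass with the block, where 6.09% of all genes passed, and with DESeq2, where 6.94% did. It was at 0.565, 0.606 and 0.253 CPM in control and at 3.42, 9.19 and 0.659 CPM in cKO. The low control levels are near the limit that counting allows, and the highest value was in cKO replicate 2. *Hras* and *Map3k7*, which were among the genes with the highest mean CPM in the list, had log2 fold changes of -0.50 and 0.090 and did not pass in any of these 3 fits.

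Of 21 tested genes known as AP-1 targets, out of 32 listed, 1 passed in edgeR, where 0.432% of all genes did, namely *Krt6a*. This keratin of wounded epithelium was at 108, 25.4 and 73.5 CPM in control and at 4.05, 3.21 and 6.92 CPM in cKO. It fell by 3.87 on the log2 scale (SE 0.58, edgeR adjusted p = 0.0498). The call was lost in 4 of the 6 fits that left out 1 library, those without control replicate 1 or 3 or cKO replicate 1 or 2, while the log2 fold change stayed between -4.27 and -3.37 in all 6. With the block *Krt6a* and *Hmox1*, the haem oxygenase gene, fell, and *Mmp9* and *Mmp13* rose. DESeq2 called *Krt6a*, *Mmp9*, *Mmp13* and *Spp1*. These were 4 of 21 in each fit, where 6.09% of all genes passed with the block and 6.94% with DESeq2. The groups did not overlap for 8 of the 21 (38.1%, against 30.7% of all genes). *Mmp13*, a collagenase gene, was at 21.7, 22.6 and 4.11 CPM in control and at 3025, 242 and 708 CPM in cKO, with an edgeR adjusted p of 0.0637 and of 0.0224 with the block.

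*Mmp9*, the gelatinase B gene, had a log2 fold change of 3.41 (SE 0.84), and *Spp1*, the osteopontin gene, one of 3.87 (SE 0.77). For both *Mmp9* and *Spp1*, as for *Mmp13*, cKO replicate 1 was the highest library, as it was for most members, and all cKO libraries were above all controls. *Gja1* and *Mmp14*, the list members with the highest mean CPM besides *Mmp13*, had log2 fold changes of -0.45 and 0.19. That library also had the highest sums of immune and endothelium markers, whose part was not tested. The median of the list was 0.12, and -0.069 without cKO replicate 1. The list thus held genes that moved in both directions, and it was drawn up with earlier results of these data known.

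**Figure D5:**
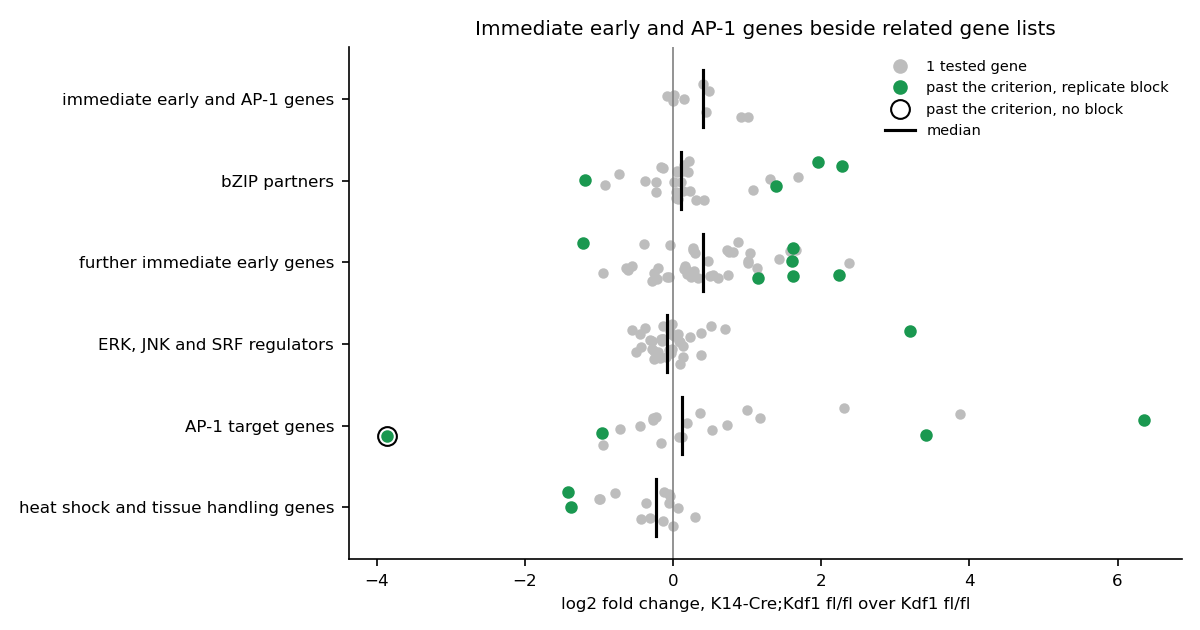
Log2 fold change of cKO over control, on the x axis, for each tested gene of 6 lists, with black lines at the medians. Green points passed the criterion with the replicate block and the ringed point, *Krt6a*, also without it. The medians lie between -0.23 and 0.41, and none of the 9 members is green.

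Heat shock and tissue handling genes, which can be induced while tissue is collected, had a median log2 fold change of -0.23 over 16 genes, with 13 of 16 negative. In edgeR 0 of 16 passed, whereas with the block and with DESeq2 *Hspa1a* and *Hspa1b*, the inducible HSP70 genes, fell. These were 2 of 16 in each fit, where 6.09% of all genes passed with the block and 6.94% with DESeq2. The groups did not overlap for 8 of the 16 (50%, against 30.7% of all genes). *Hspa1a* was at 41.8, 22.7 and 38.2 CPM in control and at 13.7, 7.17 and 17.7 CPM in cKO. *Hspa1b* was at 92.2, 54.7 and 91.1 CPM in control and at 33.5, 19.3 and 38.6 CPM in cKO, with an edgeR adjusted p of 0.0723 and of 0.0044 with the block. These 2 genes are near-identical in sequence, so their counts may be shared between them. Both were lower in all cKO libraries than in all controls, and neither had its highest cKO value in replicate 1. *Hsp90ab1* and *Hspa8*, which were among the genes with the highest mean CPM of the list, had log2 fold changes of 0.071 and -0.43 and did not pass in any of these 3 fits.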

How the data were processed

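Libraries of LCM-dissected IEE (3 control and 3 cKO) were grouped by their labels. Per the labels, total RNA was made into libraries with a TruSeq kit. The submitters' processing notes name BWA 0.7.12, Picard 2.6.0 and StringTie without a role. The counting program, its use of strand and the genome build were not given in the sources used here, so no gene coordinates other than those of the RefSeq promoters are printed, and reads of paralogs or antisense transcripts may be shared. The deposited estimated counts are the authors' reads per gene without normalisation, and 10.9% to 11.5% of values were not whole. The deposited TPM values are the authors' levels scaled by length to an equal total per library. The deposited FPKM values were made by the authors and were not used.

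Estimated counts were rounded and tested in R 4.3.3 with edgeR 4.0.16 (filterByExpr, TMM factors of 0.950 to 1.03, robust quasi-likelihood F-test, two-sided, Benjamini-Hochberg over 14131 genes). SEs were derived from the log2 fold change and its F statistic. The biological coefficient of variation was 25.4%. Intervals and floors cover counting error only, since PCR copies are not independent molecules. The deviations of same-numbered libraries from their group means correlated at 0.132, 0.353 and 0.520 across genes. Since all 3 exceeded 0.1, the numbers were taken to pair the libraries, and a fit with the number as a block was run beside the fit without it. Libraries of different numbers were not compared in this way, so these correlations cannot establish the pairing, which remains an assumption.

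Alternatives were DESeq2 1.42.0, its size factors in edgeR, upper quartile scaling, library size alone, no filter, a filter of 10 counts in every library, limma 3.58.1 (voom, and a trend on log2(TPM + 1) and log2(TPM + 0.1)), the block, other thresholds and the omission of each library. DESeq2 with the block, and DESeq2 without cKO replicate 1, were chosen after seeing the data. The members and all gene and marker lists were chosen with earlier results of these data known. From each list the 3 genes of highest mean CPM and up to 5 genes past the criterion with edgeR, the block or DESeq2, by absolute log2 fold change, are named, except for some genes not reported here. The procedure was tested on simulated counts.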

Additional observations from a re-analysis of the deposited data

How the results depend on the processing

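None of the 9 tested members passed the criterion under any of the 20 alternatives, and *Jun*, *Junb* and *Fosb* kept their positive sign in all 18 fits made for single genes. Leaving out 1 library at a time gave log2 fold changes of -0.74 to 0.53 for *Fos*, -0.011 to 0.65 for *Fosl2*, -0.61 to 0.89 for *Egr1*, -0.29 to 0.41 for *Atf3*, -0.37 to 0.23 for *Ier2*, -0.18 to 0.044 for *Jund*, 0.54 to 1.23 for *Jun*, 0.10 to 0.76 for *Junb* and 0.11 to 1.41 for *Fosb*. The lowest values of all but *Jund* were those without cKO replicate 1. With DESeq2 and without that library they were -0.76 for *Fos*, -0.025 for *Fosl2*, -0.62 for *Egr1*, -0.31 for *Atf3* and -0.39 for *Ier2*. With the replicate block *Fos* was at -0.14, *Atf3* at -0.025 and *Ier2* at -0.061, and with the block in DESeq2 at -0.14, -0.0087 and -0.044. With limma-voom they were at -0.15, -0.035 and -0.062. *Egr1*, at 0.44 in edgeR, was at 0.047 with the block, 0.043 with the block in DESeq2 and 0.035 with limma-voom. On log2(TPM + 1) and log2(TPM + 0.1) *Fos* was at -0.066 and -0.093 and *Ier2* at -0.0035 and -0.0046, and without a filter *Ier2* was at -0.0012. The cause of these differences was not tested.

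Counts past the criterion moved with the test and the threshold. They are given in the order bZIP partners, further immediate early genes, upstream regulators, AP-1 targets and heat shock genes. The counts were 0, 0, 0, 1 and 0 in edgeR, 5, 9, 1, 4 and 2 with DESeq2, and 4, 6, 1, 4 and 2 with the block. With DESeq2 and the block they were 6, 10, 1, 4 and 2, and with DESeq2 without cKO replicate 1 they were 3, 4, 1, 5 and 3. An unadjusted p of at most 0.05 with a log2 fold change of at least 1 in either direction gave 6, 12, 1, 5 and 2. Leaving out 1 library at a time gave 0 to 2, 0 to 3, 0 to 1, 0 to 2 and 0, with the highest of each range above 0 reached without cKO replicate 3. The 1 AP-1 target, *Krt6a*, was lost (0 called) with DESeq2 size factors in edgeR, library size alone, no filter, the filter of 10 counts, limma-voom and log2(TPM + 1), and in 4 of the 6 fits that left out 1 library, and 1 further immediate early gene was called without a filter. Over all genes edgeR called 61, the block 860 and DESeq2 980. DESeq2 with the block called 1118 of 14131 genes, and DESeq2 without cKO replicate 1 called 573 of 14292. In edgeR the omission of cKO replicate 3 gave 465 calls over all genes, and the omission of any other library gave 1 to 16. The count over all genes at the unadjusted threshold with the fold limit is not given here. Scaling moved the median log2 fold change of all genes by less than 0.1. With 3 libraries per group the SEs of *Egr1* (0.59), *Fosb* (0.58) and *Fos* (0.51) limit the size of a difference that could be detected for them.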
